A study of Homo sapiens with 8 samples.

Results

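VCAN, RBM47, GPR65, SGSH and KCTD12 are 5 genes that TCP alone raised in MV4-11 cells, out of 26364 gene rows in the expression table. They were chosen by their mean levels, which under TCP were well above those of vehicle-treated cells, so the values under TCP alone and in the control describe the choice and carry no test here. All 5 genes were among the 14151 genes that reached 1 TPM (a transcript level scaled to gene length and to a library sum of 1000000) in at least 2 libraries and were tested. MV4-11 is a human acute myeloid leukemia (AML) cell line, a single line in which every group carried FLT3-ITD and MLL-AF4. RNA-seq was done in 4 groups of 2 libraries each, collected at day 4: control cells given DMSO, cells given 5 μM TCP, cells given 0.5 μM palbociclib (Palbo), and cells given both molecules at these doses (the combination, PTCP). The study's methods describe its AML lines as cocultured on HS-5 human stromal cells, and describe 1 day of the CDK6 inhibitor alone followed by 3 days with both molecules, so whether TCP alone lasted 3 or 4 days cannot be told apart here. Nothing in the labels says that the 2 libraries of a group came from separate cultures, so p-values measure the spread between these libraries, which may be technical.

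TCP (tranylcypromine) inhibits LSD1, encoded by KDM1A, a demethylase that removes methyl groups from histone H3 and acts in corepressor complexes recruited by factors such as GFI1. In myeloid cells LSD1 holds enhancers of differentiation genes in a repressed state, where the myeloid factors SPI1 (PU.1) and CEBPA can bind. Palbociclib inhibits the cyclin D kinases CDK4 and CDK6. The 5 genes have unrelated products. VCAN encodes versican, a large chondroitin sulfate proteoglycan of the extracellular matrix that monocytes also make. GPR65 encodes a proton-sensing receptor coupled to cAMP production. SGSH encodes the lysosomal sulfamidase that removes sulfate from heparan sulfate. RBM47 encodes an RNA-binding protein that acts as a cofactor of APOBEC1 in RNA editing, and KCTD12 encodes an auxiliary subunit of GABA-B receptors.

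The genes lie on 5 chromosomes of the GRCh37 build, with gene bounds from GENCODE release 44 mapped to that build. VCAN spans chr5:82767437-82878122 on the plus strand, GPR65 chr14:88471479-88481155 on the plus strand, RBM47 chr4:40425284-40632892 on the minus strand, SGSH chr17:78180515-78194722 on the minus strand and KCTD12 chr13:77454310-77460540 on the minus strand. RefSeq promoter windows were found for 4 of them, 7 windows in all, and each matched GRCh37 at exactly 1 place. They are shown because these genes were all raised by an LSD1 inhibitor, and the enzyme is known to act with GFI1 and at sites of SPI1 and CEBP factors. Each sequence is the stretch upstream of a start site that lies outside annotated exons, read 5′ to 3′ on the strand of the gene, and capitals mark a motif match. The RBM47 window is that of an internal start site and lies inside an intron of the gene. The VCAN run covers chr5:82767313-82767436, the RBM47 run chr4:40518003-40518252, the GPR65 run chr14:88471229-88471478 and the KCTD12 run chr13:77460541-77460790.
VCAN: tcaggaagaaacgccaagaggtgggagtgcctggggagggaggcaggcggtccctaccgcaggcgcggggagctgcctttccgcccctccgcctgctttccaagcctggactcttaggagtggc
RBM47: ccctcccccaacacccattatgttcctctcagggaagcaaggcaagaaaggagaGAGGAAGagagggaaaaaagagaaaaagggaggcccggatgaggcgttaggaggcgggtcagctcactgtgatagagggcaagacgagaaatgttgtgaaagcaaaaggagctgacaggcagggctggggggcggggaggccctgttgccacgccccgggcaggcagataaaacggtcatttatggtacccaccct
GPR65: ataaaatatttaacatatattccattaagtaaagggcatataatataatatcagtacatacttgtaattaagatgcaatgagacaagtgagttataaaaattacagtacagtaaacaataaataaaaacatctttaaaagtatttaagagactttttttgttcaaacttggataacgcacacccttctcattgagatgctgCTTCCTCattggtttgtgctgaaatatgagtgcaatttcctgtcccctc
KCTD12: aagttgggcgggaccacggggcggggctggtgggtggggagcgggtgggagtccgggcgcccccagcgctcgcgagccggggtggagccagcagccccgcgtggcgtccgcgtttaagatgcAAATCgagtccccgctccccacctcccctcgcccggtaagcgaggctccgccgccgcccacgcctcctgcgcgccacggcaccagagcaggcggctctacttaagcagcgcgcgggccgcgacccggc

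The 250 bases before each start site were searched on both strands for GAGGAAG (SPI1), AAATC (GFI1) and TTGCNNAA (CEBP). GAGGAAG lay 196 to 190 bases before the internal RBM47 start, and its reverse complement CTTCCTC lay 49 to 43 bases before the GPR65 start. AAATC lay 128 to 124 bases before the KCTD12 start and at 2 places in another RBM47 window, which is not printed because its matches fall within exons. No match was found for VCAN, and TTGCNNAA was found for none of the 4 genes. Of 35116 RefSeq windows of the same length, 11.2% held GAGGAAG, 29.9% held AAATC and 9.05% held TTGCNNAA, so matches of this kind are common and describe the letters only. Base composition differed widely between the windows: G and C made up 75.6% of the KCTD12 window, 60.8% of the VCAN window and 29.6% of the GPR65 window, against a median of 58.0% over all windows.

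VCAN was close to silent in control cells, at 0.783 and 1.16 TPM, and reached 14.7 and 17.0 TPM under TCP. Palbociclib alone left it at 2.86 and 2.79 TPM, and the combination brought it to 88.4 and 81.8 TPM. Control cells were lowest, palbociclib and TCP came next in that order, and no 2 groups overlapped. Between palbociclib and the combination, VCAN rose by a log2 fold change of 4.49 (SE 0.13, 95% interval 4.18 to 4.81, limma adjusted p = 7.66e-05), a 30.1-fold ratio of mean TPM. This fold change ranked 3 of the 14151 genes tested.

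RBM47 stood at 3.24 and 3.96 TPM in control cells, 19.8 and 21.8 TPM under TCP, 13.5 and 12.1 TPM under palbociclib and 39.1 and 37.9 TPM under the combination. Each molecule alone was accompanied by a higher level than in the control, TCP more so than palbociclib, and the 4 groups did not overlap. From palbociclib to the combination the log2 fold change was 1.52 (SE 0.12, 95% interval 1.25 to 1.79, limma adjusted p = 0.00265), or 3.01-fold in mean TPM.

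GPR65, the proton-sensing receptor, was high in the groups that received TCP and low in those that did not. It was at 3.95 and 3.64 TPM in control cells and 3.41 and 3.74 TPM under palbociclib, 2 groups whose libraries overlapped. With TCP it was at 13.3 and 12.3 TPM, and with both molecules at 13.8 and 12.3 TPM, and these 2 groups overlapped as well. Adding TCP to palbociclib raised it by a log2 fold change of 1.62 (SE 0.12, 95% interval 1.34 to 1.89, limma adjusted p = 0.00236), or 3.64-fold.

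SGSH had the highest control level of the 5 genes, at 8.65 and 9.47 TPM, TPM being comparable between genes because it is scaled to length. It was at 28.3 and 25.7 TPM under TCP and 26.8 and 31.9 TPM under palbociclib, so the single treatments overlapped, while the combination held 64.1 and 68.8 TPM. The change from palbociclib to the combination was a log2 fold change of 1.16 (SE 0.11, 95% interval 0.89 to 1.42, limma adjusted p = 0.00603), or 2.26-fold, the smallest of the 5. SGSH shares 230 exonic bases with CARD14 and 8 with SLC26A11, both on the opposite strand. CARD14 was at 0.149 and 0.253 TPM in the control, 0.990 and 0.986 TPM under TCP, 1.26 and 1.91 TPM under palbociclib and 3.26 and 4.19 TPM under the combination. SLC26A11 was at 1.16 and 0.502 TPM in the control, 3.98 and 2.00 TPM under TCP, at most 1.62 TPM in both palbociclib libraries and 6.06 and 5.52 TPM under the combination. Both neighbours were highest in the combination, as SGSH was. The strand setting of the counting is not given in the sources used here, so reads of SGSH and of its neighbours cannot be told apart where they overlap. VCAN shares 453 exonic bases with VCAN-AS1, GPR65 shares 236 and RBM47 shares 25 with opposite-strand long noncoding RNAs, which were not analysed here.

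KCTD12 changed least under TCP alone and far more when both molecules were present. It was at 3.61 and 3.35 TPM in control cells, 7.04 and 6.71 TPM under TCP, 6.22 and 5.67 TPM under palbociclib and 38.2 and 30.8 TPM under the combination. The single treatments lay close together without overlapping, and both combination libraries stood well above them. From palbociclib to the combination the log2 fold change was 2.35 (SE 0.13, 95% interval 2.04 to 2.66, limma adjusted p = 0.00119), or 5.81-fold.

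**Figure D1:**
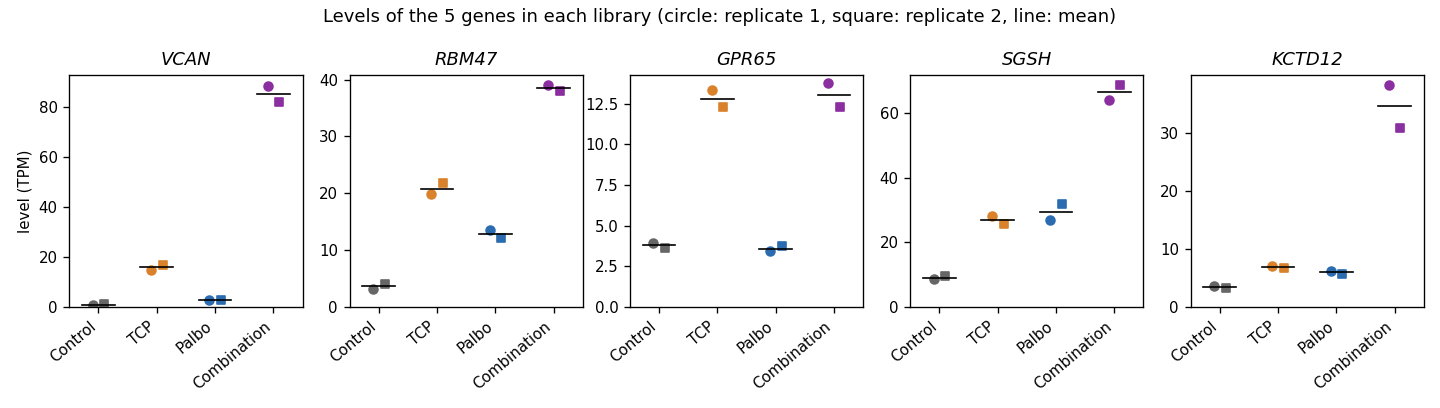
Level of each of the 5 genes in TPM (vertical axis, a separate scale for each gene) in the 4 treatment groups, with circles for replicate 1, squares for replicate 2 and a line at the mean of 2. VCAN and KCTD12 are highest in the combination by a wide margin, with means of 85.1 and 34.5 TPM, while GPR65 has about the same level in the combination and under TCP, with means of 13.0 and 12.8 TPM.

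The fold changes tested here come from the 4 libraries that contain palbociclib, whose values the rule for choosing the genes did not name. The estimate of the spread came from all 8 libraries, including the control and TCP libraries that the rule used. The genes were also chosen with earlier results of these data known, so the test is not fully separate from the choice. All 5 genes passed the threshold (a log2 fold change of 1 or more in either direction and a limma adjusted p below 0.01) as higher in the combination than under palbociclib, where 0.459% of all genes tested did so and 0.0424% passed as lower. Both combination libraries lay above both palbociclib libraries for all 5 genes, as they did for 16.6% of all genes tested. For 1 gene, exact permutation of 2 libraries against 2 cannot go below a two-sided p of 0.333, so these calls lean on the estimate of the spread that limma shares over genes and groups. When only the 4 libraries compared were fitted, 1 of the 5 genes, VCAN, kept the call (limma adjusted p = 0.00387), and the other 4 had limma adjusted p values from 0.0136 to 0.0334. Leaving out any 1 of these 4 libraries also left VCAN as the only one of the 5 called. SGSH was further lost when either control library was left out (limma adjusted p = 0.0166 and 0.0167) and without the filter on low values (limma adjusted p = 0.0121), while its log2 fold change stayed between 1.04 and 1.28 in all alternatives.

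Under TCP alone, the contrast by which the genes were chosen, the log2 fold change from control was 3.10 for VCAN, 2.25 for RBM47, 1.53 for GPR65, 1.48 for SGSH and 0.82 for KCTD12. The first 4 of these genes are among the 8 genes past the threshold in that contrast, 0.0565% of those tested, and KCTD12 lies outside it on both the fold change and the adjusted p. The other 4 genes past it were FCRLA, FLJ46906, AMICA1 and IFI30, and they diverged once palbociclib was present. FCRLA was at 6.44 and 4.76 TPM under TCP, 0.174 and 0.0431 TPM under palbociclib and 2.12 and 1.80 TPM under the combination. From palbociclib to the combination its log2 fold change of 1.42 was past the fold threshold, but the limma adjusted p was 0.0157. FLJ46906 was at 24.0 and 24.3 TPM under TCP, 4.32 and 4.78 TPM under palbociclib and 6.52 and 7.99 TPM under the combination. Its log2 fold change from palbociclib to the combination was 0.57. IFI30, which encodes a lysosomal thiol reductase of antigen processing, was higher in the combination than under TCP, unlike FCRLA and FLJ46906. It was at 149 and 150 TPM under TCP, 210 and 208 TPM under palbociclib and 817 and 796 TPM under the combination. IFI30 alone of these 4 passed the threshold from palbociclib to the combination (log2 fold change 1.95, limma adjusted p = 0.000501). AMICA1 was at 12.2 and 14.3 TPM under TCP, 94.8 and 97.8 TPM under palbociclib and 177 and 204 TPM under the combination. From palbociclib to the combination it fell just short of the fold threshold (log2 fold change 0.97, limma adjusted p = 0.00813).

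**Figure D2:**
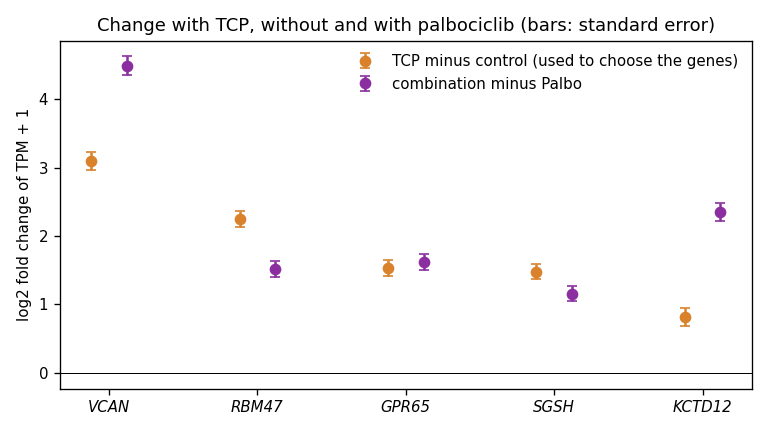
Change in log2(TPM + 1) with TCP (vertical axis) for each of the 5 genes, from control to TCP in orange and from palbociclib to the combination in purple, with bars of 1 standard error from limma. The purple point lies above the orange one for VCAN (4.49 and 3.10) and KCTD12 (2.35 and 0.82), below it for RBM47 (1.52 and 2.25) and near it for GPR65 (1.62 and 1.53).

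The estimates of how far the change with TCP depended on palbociclib differed among the 5 genes. On the log2 scale the change with TCP was larger by 1.40 (SE 0.19) for VCAN and by 1.53 (SE 0.18) for KCTD12 when palbociclib was present. It differed by 0.09 (SE 0.17) for GPR65, by -0.32 (SE 0.16) for SGSH and by -0.73 (SE 0.16) for RBM47. These values moved with the settings. Over all alternatives VCAN ran from 0.95 (pseudocount of 0.1) to 1.58 (quantile normalization). KCTD12 ran from 1.38 to 1.68 and RBM47 from -0.92 to -0.62. SGSH was at -0.20 without palbociclib replicate 2 and at -0.44 without palbociclib replicate 1. With each library left out in turn, GPR65 ran from 0.01 (without combination replicate 1) to 0.16 (without combination replicate 2). These differences include the contrast used to choose the genes and are given as a description. Across all genes tested, limma called 0 for this difference, with 904 at an unadjusted p below 0.05, and 0 with the replicate number as a block. None of the 5 genes was therefore called, and their limma adjusted p values in the main fit ran from 0.173 (KCTD12) to 0.998 (GPR65).

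In TPM the picture shifted, because a fold is read against a different starting level. Adding the gain from each single molecule to the control level would give 17.7 TPM for VCAN and 9.34 TPM for KCTD12, against means of 85.1 ± 4.64 (SD, n = 2) and 34.5 ± 5.22 TPM (SD, n = 2) in the combination. For SGSH the sum was 47.3 TPM against 66.5 ± 3.36 TPM (SD, n = 2), and for RBM47 it was 30.0 TPM against 38.5 ± 0.789 TPM (SD, n = 2). Both combination libraries lay above the sum for these 4 genes, so RBM47 and SGSH were above it in TPM while their fold changes with TCP were smaller in the presence of palbociclib. For GPR65 the sum was 12.6 TPM and the combination 13.0 ± 1.03 TPM (SD, n = 2), with 1 library on each side.

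**Figure D3:**
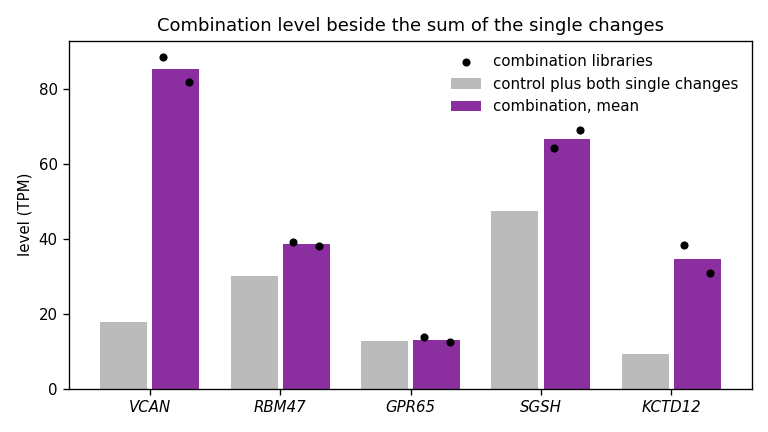
Mean level in the combination (purple bars, TPM, with a point for each of the 2 libraries) beside the control mean plus the mean gains of TCP alone and palbociclib alone (grey bars) for the 5 genes. VCAN (85.1 and 17.7 TPM) and KCTD12 (34.5 and 9.34 TPM) stand farthest from the sum, and GPR65 (13.0 and 12.6 TPM) lies next to it.

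Palbociclib alone separated the genes differently. Its log2 fold change from control was 1.59 (SE 0.12) for RBM47, 1.59 (SE 0.11) for SGSH, 0.96 (SE 0.13) for VCAN and 0.63 (SE 0.13) for KCTD12, and -0.07 (SE 0.12) for GPR65, which turned to 0.07 when libraries were scaled by their median ratios. The median gene moved by -0.16, so GPR65 lay slightly above it. On this scale 2 of the 5 genes, RBM47 and SGSH, were past the threshold, where 4.54% of all genes tested were higher and 4.56% lower, and both palbociclib libraries lay above both control libraries for 4 of the 5, against 26.5% of all genes. VCAN lay just under the fold threshold and passed it, for 3 of the 5, at 1.47 with a pseudocount of 0.1, at 1.06 with median-ratio scaling and at 1.10 without control replicate 2. The comparisons with control or with TCP alone share libraries with the choice of the genes, so their counts and values are a description. Palbociclib on top of TCP gave log2 fold changes of 2.36 for VCAN, 2.17 for KCTD12, 1.27 for SGSH, 0.86 for RBM47 and 0.02 for GPR65, where the median gene moved by -0.18. The interval for GPR65 ran from -0.25 to 0.30, and the value lay between -0.05 and 0.21 over all alternatives. Past the threshold were VCAN, KCTD12 and SGSH, 3 of the 5, where 5.46% of all genes were higher and 6.70% lower, and both combination libraries lay above both TCP libraries for 4 of the 5, against 25.9% of all genes. RBM47 passed as well, for 4 of the 5, at 1.05 with median-ratio scaling and at 1.03 with quantile normalization. Both combination libraries lay above the other 6 libraries for 4 of the 5 genes, all but GPR65, as they did for 8.22% of all genes tested. From control to combination all 5 genes were past the threshold, where 5.87% of all genes were higher and 7.82% lower, and lay above both control libraries in both combination libraries, against 26.0% of all genes. The ratio of mean TPM was 87.4 for VCAN, 10.7 for RBM47, 9.93 for KCTD12, 7.33 for SGSH and 3.43 for GPR65.

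Across the 8 libraries, the pattern of each gene was compared with all others as the root mean square difference of log2(TPM + 1) relative to the control mean, where 0 would be an identical course. Among the 5 genes, RBM47 and SGSH were the closest pair, at 0.443, and VCAN and GPR65 the farthest apart, at 2.17. KCTD12 had the closest neighbours outside the 5, ADAP2 and LILRB3 at 0.174 each and LILRA6 at 0.257. GPR65 lay near ZFP36L1 (0.226), HLA-DRB1 (0.229) and VIM (0.233). SGSH lay near MS4A7 (0.307), MS4A14 (0.406) and TLR1 (0.423). RBM47 lay near MS4A4A (0.361), HLA-DQA1 (0.567) and LILRB1 (0.597). VCAN had no near neighbour by this measure, the closest being MPEG1 (0.832), LILRA5 (1.03) and MS4A4A (1.21). The measure is not scaled to the size of the changes, so a gene that changes much, such as VCAN, tends to lie far from others. The HLA and LILR genes have near-identical relatives between which reads can be shared.

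The other genes of each pathway were counted from lists set out for this work. For VCAN the list held genes of chondroitin sulfate synthesis, related proteoglycans and versican-binding receptors, and of 22 tested none passed from palbociclib to the combination or from control to TCP (limma), with a median log2 fold change of -0.04 in the first comparison beside -0.07 for all genes. Under palbociclib alone, 3 of the 22 rose, where 4.54% of all genes did: TLR2, a receptor that can bind versican, from 70.0 and 96.1 TPM to 198 and 259 TPM, SELPLG, and CSGALNACT1, a chondroitin sulfate synthesis enzyme, from 0.398 and 0.450 TPM to 5.94 and 4.17 TPM. The proteoglycan relatives were low, with ACAN at 0 in every library and NCAN below 0.06 TPM.

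For GPR65, the list of proton-sensing receptors and cAMP signalling genes held 16 tested genes, of which 1 rose from palbociclib to the combination and none fell. This was PRKAR2B, a regulatory subunit of the cAMP-dependent kinase, at 4.07 and 3.20 TPM under palbociclib and 14.3 and 14.4 TPM under the combination (log2 fold change 1.74, limma adjusted p = 0.00405). Among the sister receptors, GPR132 was at 37.0 to 50.3 TPM in all libraries and GPR4 stayed below 1 TPM. For SGSH, none of 10 other genes of heparan sulfate breakdown passed from palbociclib to the combination. Under palbociclib alone 2 of the 10 rose and none fell (limma), with a median log2 fold change of 0.49 beside -0.16 for all genes. One of them was IDUA, a lysosomal iduronidase, which went from 13.9 and 10.8 TPM to 26.2 and 28.3 TPM. NAGLU, which acts on the same chain, was between 16.7 and 20.2 TPM in all 8 libraries.

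For KCTD12, 1 of 15 tested genes of the KCTD family and the GABA-B receptor passed: KCTD6 rose from 4.26 and 4.38 TPM under palbociclib to 15.2 and 13.9 TPM under the combination (log2 fold change 1.54, limma adjusted p = 0.00557). The GABA-B receptor subunits GABBR1 and GABBR2, the partners of KCTD12, and its relative KCTD16 stayed below 0.1 TPM, and KCTD8 was at 0 throughout. For RBM47, 2 of 5 editing-related genes were tested and neither passed, and RBM46, A1CF and APOBEC1, the editing enzyme itself, were at 0 in every library. HNRNPR fell under palbociclib, from 95.8 and 103 TPM to 45.7 and 44.4 TPM (log2 fold change -1.12, limma adjusted p = 0.000180), a change that missed the fold threshold at -0.99 with quantile normalization and at -0.95 with median-ratio scaling.

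**Figure D4:**
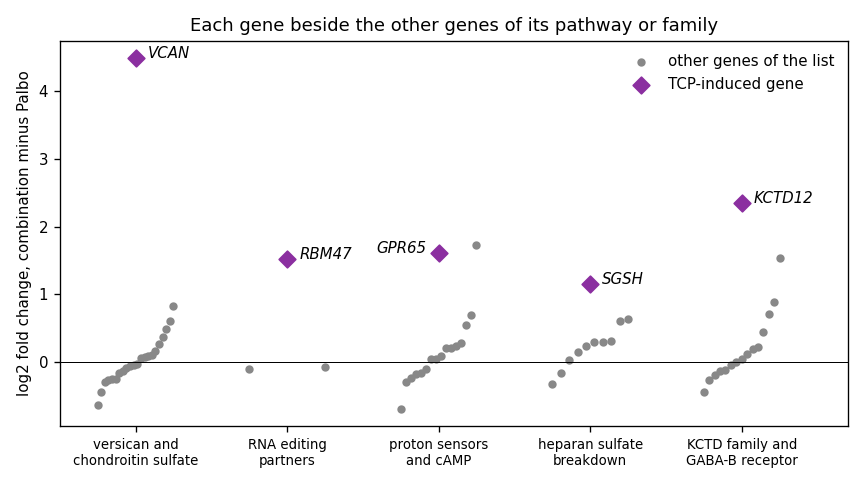
Log2 fold change from palbociclib to the combination (vertical axis) for VCAN, RBM47, GPR65, SGSH and KCTD12 (purple diamonds) and the other tested genes of the pathway or family of each (grey points). Each of the 5 genes lies above the other genes of its list except GPR65, where PRKAR2B at 1.74 lies just above 1.62.

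Because these are bulk libraries, more cells of a type and more RNA per cell cannot be told apart. The cells carried the markers of MV4-11 in every library: PTPRC, CD33, FLT3, SPI1, HOXA9 and MEIS1 were between 27.1 and 497 TPM. VCAN is also a marker of classical monocytes. The sum of 11 other monocyte markers was 421 and 928 TPM in the control, 900 and 1943 TPM under TCP, 19773 and 21941 TPM under palbociclib and 40281 and 39507 TPM under the combination. That order differs from that of VCAN, which was higher under TCP than under palbociclib. Of 10 tested markers, CD14, S100A9, S100A12 and FCN1 rose from palbociclib to the combination and none fell. Of 12 tested genes known to respond to LSD1 inhibitors, S100A12, MS4A4A and CD86 rose in that comparison and none fell, though the study looked at several of these on the same samples, so they are not independent evidence. From palbociclib to the combination CSF1R rose as well, the only one of 10 markers of the line to do so, from 36.4 and 37.9 TPM to 86.9 and 90.7 TPM. The part of these markers in the results for the 5 genes was not tested.

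Stromal cells make versican too, so the markers of HS-5 were read beside VCAN. The summed level of 28 stromal markers was 61.6 and 97.9 TPM in the control, 97.1 and 105 TPM under TCP, 205 and 562 TPM under palbociclib and 449 and 642 TPM under the combination. CCL2, which monocytes also make, gave 336 and 498 TPM of the sums in the combination. The 8 defining genes COL1A1, COL1A2, COL3A1, COL6A3, DCN, LUM, PDGFRB and THY1 summed to 64.2 TPM in palbociclib replicate 2 and to 0.797 to 11.4 TPM in the other 7 libraries, with COL1A1 at 22.2 TPM and COL3A1 at 17.5 TPM in that library. VCAN was at 2.79 TPM in that library and at 2.86 TPM in palbociclib replicate 1, where the 8 genes summed to 3.57 TPM. Without palbociclib replicate 2 the log2 fold change of VCAN from palbociclib to the combination was 4.48. Of the 17 stromal genes tested, limma called none from palbociclib to the combination, where 0.459% of all genes were called higher and 0.0424% lower. Their median log2 fold change was -0.50 beside -0.07 for all genes, and 4 of the 17 were positive. The part of stromal RNA in the VCAN values was not tested. Lymphoid markers summed to at most 5.50 TPM and erythroid and megakaryocyte markers to at most 3.45 TPM in any library.

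**Figure D5:**
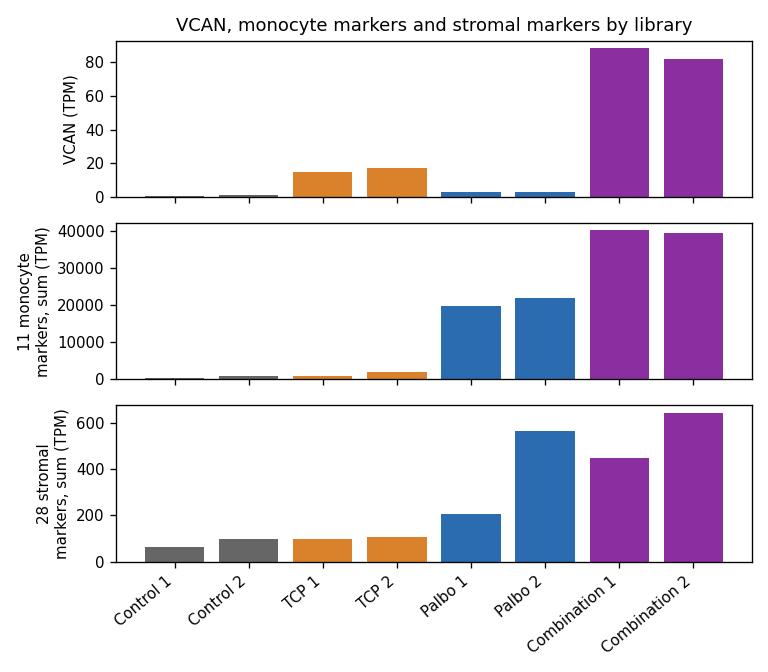
TPM by library (horizontal axis) of VCAN (top), the sum of 11 monocyte markers (middle) and the sum of 28 stromal markers (bottom), coloured by group, each on its own scale from 0. VCAN is at 2.86 and 2.79 TPM in the palbociclib libraries, whose stromal sums are 205 and 562 TPM, and its level under TCP alone exceeds that under palbociclib alone, unlike the monocyte sum.

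Of the drug targets, KDM1A was at 79.6 and 85.0 TPM in the control, 83.0 and 79.6 TPM under TCP, 47.4 and 42.5 TPM under palbociclib and 47.5 and 45.6 TPM under the combination. None of KDM1A, CDK4 and CDK6 passed from palbociclib to the combination or from control to TCP (limma). CDK4 passed as lower in the combination than in the control (log2 fold change -1.07) and than under TCP (-1.06). Both changes missed the fold threshold with quantile normalization and with median-ratio scaling. In the libraries as a whole, 13320 to 13640 genes reached 1 TPM in a library, and the 10 most abundant genes held 9.12% to 9.67% of all TPM without palbociclib and 14.0% to 15.8% with it. TPM sum to 1000000 in each library, so a larger share of a few genes lowers the values of all others, and the depth behind each value is unknown.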

How the data were processed

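RNA was sequenced from MV4-11 cells in 4 groups of 2 libraries (Illumina stranded mRNA kit). The authors mapped reads to hg19 (GRCh37) with Subread, counted them per gene with featureCounts 1.6.4 and deposited TPM, and per the submitters' processing notes SAMtools 1.9 and DESeq2 1.26.0 were also used. The gene annotation and the strand setting are not given in the sources used here. Groups and replicate numbers came from the labels.

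Values were taken as log2(TPM + 1) of the deposited TPM and modelled by limma (version 3.58.1, R 4.3.3). Each group had its own coefficient, all 8 libraries shared the variance estimate with a trend, and p-values were adjusted by Benjamini-Hochberg over the 14151 genes that reached 1 TPM in 2 or more libraries. Calls required a log2 fold change of 1 or more in either direction with an adjusted p below 0.01. The pseudocount of 1 understates the fold of low genes such as VCAN. No count test was possible, since the values are not counts. The fit was tested on simulated data.

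The 5 genes and the gene lists were chosen with earlier results of these data known. Named besides the 5 genes were the 3 nearest genes of each, the other genes called under TCP, up to 4 called genes per list, and family members, stromal markers and drug targets. Some genes that this rule covers are not reported here. The groups share replicate numbers 1 and 2. Within each number, deviations from the group mean correlated across genes in all 6 pairs of groups (r 0.169 to 0.491). On that basis libraries were taken as paired by number, although no label says what a number stands for. The fit without the block was the main one. Alternatives were a pseudocount of 0.1, no filter, a mean of at least 5 TPM, quantile and median-ratio scaling, the replicate block, only the groups compared, no trend, an adjusted p below 0.05, and each library left out. Promoter windows are those of RefSeq, located in GRCh37 by exact match. Chromatin data and primary samples were not analysed here.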

Additional observations from a re-analysis of the deposited data

How the results depend on the processing

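With the replicate number as a block, which pairs the libraries, all 5 genes stayed called from palbociclib to the combination (limma adjusted p from 0.000225 to 0.00346), while the genes called rose from 71 to 114 in that comparison and from 8 to 20 from control to TCP (15 higher, 5 lower), and it changed no other count of calls by over 1.5 times. From palbociclib to the combination, the 71 became 183 at an adjusted p below 0.05, 38 without the filter, 42 at a pseudocount of 0.1, 10 with only the groups compared, and 1 to 52 with 1 library left out. Of the 5 genes, 1 was called with only the groups compared and 1 to 5 with 1 library left out. The 1 was VCAN whenever a palbociclib or combination library was missing, where the lone library of a group was assumed to vary like the other groups. The log2 fold changes of the 5 genes kept their direction in all 17 alternatives: VCAN 4.44 to 4.86, KCTD12 2.20 to 2.51, RBM47 1.45 to 1.59, GPR65 1.54 to 1.84, SGSH 1.04 to 1.28. From control to TCP, the 8 became 36 at an adjusted p below 0.05, 3 with quantile normalization, 2 with median-ratio scaling, 0 with only the groups compared (853 at an unadjusted p below 0.05) and 0 to 1 with 1 library left out. The difference in the change with TCP had 7 calls without the filter and 0 with it. From control to palbociclib, 1288 genes were called, and 787 (without palbociclib replicate 2) to 1341 with 1 library left out. The share of higher genes among those called was 49.9% for palbociclib against control, 68.0% with median-ratio scaling and 60.9% with quantile normalization, and 42.8%, 63.0% and 56.1% for the combination against control. For the combination against TCP these were 44.9%, 62.1% and 55.8%. The cause of these shifts was not tested. The limits are 2 libraries a group, 1 cell line and an unknown depth, so small differences such as those of GPR65 between control and palbociclib were not detectable at this size.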
